A study of Mus musculus with 6 samples.

Results

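The miR-30 family was described in exosomes released by RAW264.7 cells, a mouse macrophage cell line, that had been kept on titanium disks. Its members were chosen by name: every sequence listed as miR-30a, miR-30b, miR-30c, miR-30d or miR-30e, on either arm of its hairpin, was kept. No measured value thus enters the rule, although the family itself was picked for description with earlier results of these data known. The species prefix of a name was disregarded: the members are listed under rat names, apart from miR-30b-3p under one of Chinese hamster. The rule kept 10 of the 2704 distinct sequences in the table, 5 from the 5p arms and 5 from the 3p arms, and 533 of the 2704 carry a microRNA name. There were 3 libraries from cells on disks with small-scale topography (here called topography disks), which had been sandblasted, acid-etched and treated with hot alkali, and 3 from cells on polished smooth disks. Both groups were the same cell line in exosome-free medium, the exosomes were collected from the supernatant by ultracentrifugation, and the smooth disks served as the control. The paper's methods name a complete medium with fetal bovine serum and do not call it exosome-free. Whether serum contributed to the miR-30 values was not tested. The methods speak in general of independent repeats, but whether the 3 libraries of a disk came from separate cultures is not given in the sources used here, so the spread behind each p-value is that of these libraries and could be technical.

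MicroRNAs are cut from a hairpin precursor whose 5p and 3p arms can each give a mature strand, and usually 1 of them is kept in the silencing complex while the other is degraded. Target messages are recognized mainly through the seed, bases 2 to 8 of the mature strand. The miR-30 family is known in osteoblast precursors, where its members repress Runx2 and Smad1, both of which drive osteoblast differentiation. It is also known to repress the autophagy gene Beclin 1 and Snai1, a regulator of epithelial-mesenchymal transition.

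The sequences of miR-30a, miR-30e and miR-30c are shown first because they show what the members share and where the listed forms end. The mature forms of RefSeq (GRCm38.p6) are given with the seed in capitals.
miR-30a-5p: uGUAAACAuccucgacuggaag
miR-30e-5p: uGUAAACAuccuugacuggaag
miR-30c-5p: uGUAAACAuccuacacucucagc
miR-30a-3p: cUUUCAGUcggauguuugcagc
miR-30e-3p: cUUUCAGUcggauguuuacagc
miR-30c-2-3p: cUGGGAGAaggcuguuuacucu
All 5 listed 5p sequences, including those of miR-30b and miR-30d, had the same seed, and no other of the 2704 sequences carried it at bases 2 to 8. No value of miR-384-5p, which is known to share this seed, was analysed here. On the 3p arms, miR-30a, miR-30d and miR-30e shared a seed, while miR-30b-3p and miR-30c-2-3p each had their own. Counted from 1 at the 5′ end, miR-30a-5p and miR-30e-5p differ only by C13T, given as the base of miR-30a first. The listed miR-30d-5p differs from miR-30a-5p at 1 of 24 bases as well.

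The table gives 1 sequence for each arm, so isomiRs, sequences of 1 arm that end at different bases, could not be compared with each other. Whether a value sums every isomiR of an arm or counts only the listed sequence is not given in the sources used here, so each level, share and rank is that of the entry under its name. The listed forms of the 3 most abundant members were nevertheless longer than the annotated ones, and that of miR-30c-5p was shorter. In the deposited sequences the bases beyond the annotated 3′ end are in capitals.
miR-30a-5p: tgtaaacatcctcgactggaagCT
miR-30e-5p: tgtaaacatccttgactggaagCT
miR-30c-5p: tgtaaacatcctacactct
The listed miR-30d-5p is also named as 2 bases longer, so 3 of the 10 members had this end, against 16 of the 533 sequences with a microRNA name. The added bases stand in the hairpins of miR-30a and miR-30e, which these sequences matched over all 24 bases. The hairpin of Mir30a is shown with the listed 5p and 3p sequences in capitals.
Mir30a: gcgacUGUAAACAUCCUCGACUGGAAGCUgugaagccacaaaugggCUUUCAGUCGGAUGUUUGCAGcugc
The listed miR-30c-5p has 19 bases and shares its first 18 with miR-30b-5p. Its values, unlike those of miR-30a, miR-30d and miR-30e, were not whole multiples of 1 read in 4 of the 6 libraries, and that of miR-30b-5p was not in 1. The values of these members thus include fractions of a read. The listed miR-30e-3p carried C22T, given as the RefSeq base first, and so matched no hairpin exactly. The listed miR-30d-3p is also named with C22T, but was not compared with a hairpin.

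On GRCm38.p6, the listed miR-30a-5p matched Mir30a at chr1:23272274-23272297 on the plus strand, outside any other annotated gene. The listed miR-30e-5p matched Mir30e at chr4:120772658-120772681 on the minus strand and is intronic to Nfyc, which encodes a subunit of the transcription factor NF-Y. The annotation (GENCODE M21) also places Mir30f on the opposite strand there. The listed miR-30c-5p matched 2 hairpins equally. One is Mir30c-2 at chr1:23291714-23291732 on the plus strand, within an exon of the non-coding gene Gm27028 and 19361 bases from Mir30a, and the other is Mir30c-1 at chr4:120769588-120769606 on the minus strand, likewise intronic to Nfyc and 2983 bases from Mir30e. The genes of miR-30b and miR-30d are both on chromosome 15. The members thus come from 3 pairs of hairpins, each pair on 1 chromosome.

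The libraries held 163845 to 264828 reads on topography disks and 194510 to 604081 on smooth disks, when the smallest step of each library's values is taken as 1 read. Sequences under about 5 reads are mostly not listed, which corresponds to a normalized value of 2.33 in smooth replicate 2, the deepest library, and of up to 7.77 in the others. A listed 0 therefore allows a level below that limit. Of 7 microRNAs known from macrophages, 6 were listed, 4 of them in all 6 libraries. They made up 38.4% to 46.6% of the normalized total, nearly all of it miR-21-5p, so this share was not taken as a check of the cell type. The others were far lower, with miR-146a-5p at 91.4 to 498, miR-142-5p at 100 to 205, miR-155-5p at 7.43 to 83.0 and miR-142-3p at 0 to 12.6. Myeloid miR-223-3p was low, at 0 to 28.9, and was listed at 0 in 2 topography libraries. The liver microRNA miR-122-5p, at 2255 to 3726, was above each of these markers other than miR-21-5p. It stood at 0.801% to 1.59% of the total, 3 erythroid microRNAs together at 0.0241% to 0.0430% and 4 mesenchymal ones at 0.184% to 0.336%, of which miR-145-5p was not analysed here. Of 3 muscle microRNAs only miR-133a-3p was listed, in smooth replicate 2 at 2.33. For each of these lists the ranges of the disks overlapped, and their part in the miR-30 values was not tested.

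Summed, the 10 members took 0.501% ± 0.112 of all normalized signal in exosomes from topography disks and 0.570% ± 0.159 in those from smooth disks (SD over 3 libraries each). Replicates 1 to 3 of the topography disks had a share of 0.471%, 0.626% and 0.407%, and those of the smooth disks 0.753%, 0.476% and 0.481%. The groups overlapped, and the difference was not larger than the spread (exact permutation test, two-sided, p = 0.5, where 3 libraries against 3 allow no p below 0.1). Values are relative within a library, so they measure neither the number of vesicles nor the amount of RNA in each. The direction of the difference turned without smooth replicate 1, to 0.0224 percentage points higher on topography disks. The 5p arms held 97.5% to 99.4% of the family in every library. Read as shares of the family on topography disks and on smooth disks, miR-30a-5p held 54.8% ± 3.76 and 52.8% ± 0.741, miR-30e-5p 30.2% ± 3.20 and 27.6% ± 1.51, and miR-30d-5p 8.18% ± 1.79 and 13.5% ± 2.09 (SD, n = 3 each).

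The order of the levels was nearly the same in all 6 libraries. By mean normalized value, miR-30a-5p, which is known to repress Beclin 1, was the most abundant member and the 33rd of the 533 sequences with a microRNA name. It was followed by miR-30e-5p at rank 50, miR-30d-5p at rank 70, miR-30c-5p at rank 130 and miR-30b-5p at rank 158. miR-30a-5p exceeded miR-30e-5p in 6 of 6 libraries, by 1.57 to 2.11 times, miR-30e-5p exceeded miR-30d-5p in 6 of 6, by 1.66 to 4.39 times, and miR-30d-5p exceeded miR-30c-5p in 6 of 6, by 1.79 to 7.47 times. Only the last neighbours changed order, as miR-30c-5p was higher than miR-30b-5p in 5 of 6 libraries and lower in topography replicate 2. The differences in level between members were not tested. A read covers a whole mature microRNA, so these normalized values need no correction for length. Whether the library preparation captured each sequence equally well was not tested, so ranks and ratios between members are those of reads.

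miR-30a-5p was listed at 518, 931 and 670 in the topography libraries and at 1097, 710 and 587 in the smooth libraries, in replicates 1 to 3. The highest library was smooth replicate 1, the lowest was topography replicate 1, and the groups overlapped. The log2 fold change, topography over smooth on log2(value + 1), was -0.17 (standard error 0.28, 95% confidence interval -0.75 to 0.42, adjusted p = 0.887 from limma). miR-30e-5p was listed at 283, 593 and 318 and at 537, 367 and 329. Its groups overlapped as well, with topography replicate 2 the highest of all 6. Its log2 fold change was -0.09 (standard error 0.31, 95% confidence interval -0.72 to 0.54, adjusted p = 0.943 from limma). The ratio of these members to each other varied little, by 1.34 times between the lowest and the highest library, although the level of each varied by 2.12 and 2.10 times and their hairpins lie on different chromosomes. Over the 6 libraries, which share their depth and scaling across members, Pearson's r between their log2 values was 0.94, given as a description.

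miR-30d-5p was the member in which the disks stood apart. It was listed at 99.01, 143 and 72.5 in the topography libraries and at 324, 156 and 148 in the smooth ones, from 77, 92 and 69 reads and 392, 335 and 123 reads. Every topography library was below every smooth library, with smooth replicate 1 far above the others and the gap between 143 and 148 narrow. The group means were 105 ± 35.6 and 209 ± 99.1 (SD, n = 3 each), so that the smooth mean was 1.997 times that of topography disks. The log2 fold change was -0.95 (standard error 0.38, 95% confidence interval -1.73 to -0.17). The unadjusted p was 0.0189 and the adjusted p 0.823 from limma over 536 sequences, so the change did not pass the threshold of 0.05. From limma without its mean-variance trend, the unadjusted p was 0.124. The exact permutation test gave p = 0.1, the smallest possible. Without smooth replicate 1 the log2 fold change was -0.59, and 3 of the 6 fits that each left out 1 library gave an unadjusted p of at least 0.05, those without topography replicate 1, topography replicate 3 or smooth replicate 1.

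**Figure D1:**
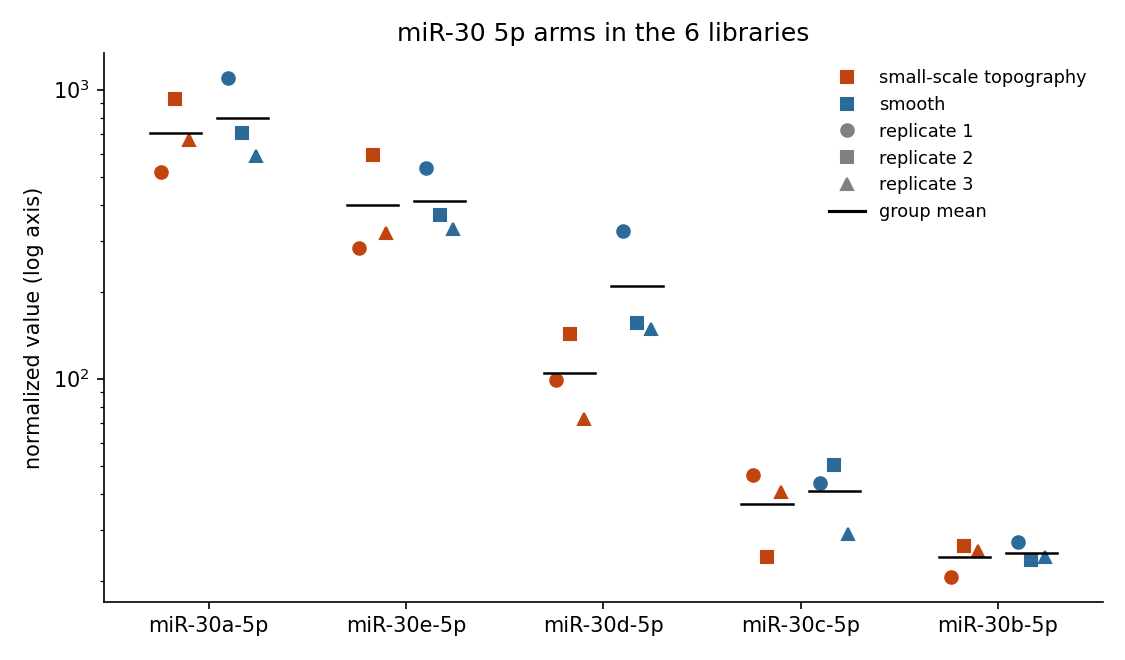
Normalized value (log axis) of the 5 members from the 5p arms in each library, with small-scale topography in orange, smooth in blue, a marker shape for each replicate number and a bar at the group mean. miR-30d-5p is the only one of the 5 whose groups do not overlap, at 72.5 to 143 against 148 to 324.

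Of the 10 members, 7 passed the filter on low values (a sum of at least 20 over the 6 libraries) and were tested, and 3 sequences of the 3p arms did not pass it. None of the 7 had an adjusted p under 0.05, and neither did any of the 536 sequences tested (0%). At an unadjusted p under 0.05 there was 1 member, miR-30d-5p, which was lower on topography disks, and 9 (1.68%) of all 536 sequences were lower at that level. No member was higher at that level, against 3 (0.56%) of the 536. The same single member was lower with groups that did not overlap, as were 27 (5.04%) of the 536, and no member was higher without overlap, against 10 (1.87%). Among the 7, 6 log2 fold changes were negative and 1 was positive, with a median of -0.16, against 265 negative of 536 and a median of 0.01 over all sequences tested. Only miR-30d-5p kept its sign in every fit that left out 1 library. The members were measured in the same 6 libraries, so their signs are not separate results. When the values of all sequences of 1 name were summed and the 497 resulting names were fitted, the log2 fold changes of the members were the same by construction. The adjusted p of miR-30d-5p was then 0.803 from limma, and 9 (1.81%) of the 497 names were lower at an unadjusted p under 0.05.

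**Figure D2:**
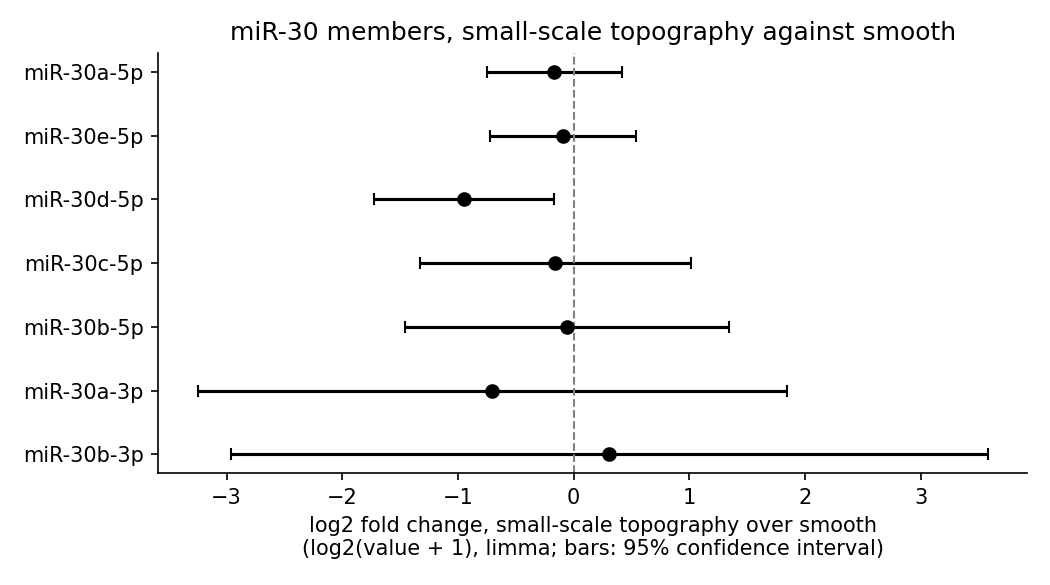
Log2 fold change of the 7 tested members, topography over smooth on log2(value + 1), with points for the limma estimate and bars for the 95% confidence interval. The interval of miR-30d-5p, from -1.73 to -0.17, is the only one of the 7 that leaves out 0, and those of the low 3p arms are the widest.

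The ratio of members within a library does not depend on how that library was scaled, so the members were also set against miR-30d-5p. Its lower values were already known when this ratio was chosen, so the ratios restate them on another scale and are given as a description, with no test. miR-30a-5p was 5.23, 6.51 and 9.25 times miR-30d-5p on topography disks and 3.39, 4.55 and 3.96 times on smooth disks. All 3 topography ratios were above all 3 smooth ratios, and the log2 ratios differed by 0.79 (2.77 ± 0.41 against 1.98 ± 0.21, SD, n = 3 each). The ratio of miR-30e-5p to miR-30d-5p was 2.86, 4.15 and 4.39 against 1.66, 2.35 and 2.22, and the log2 ratios differed by 0.86. For miR-30b-5p they differed by 0.90, again without overlap between the groups. The log2 ratio of miR-30c-5p differed by 0.79, but its groups overlapped. Since all 4 share miR-30d-5p as denominator, they are not separate results.

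**Figure D3:**
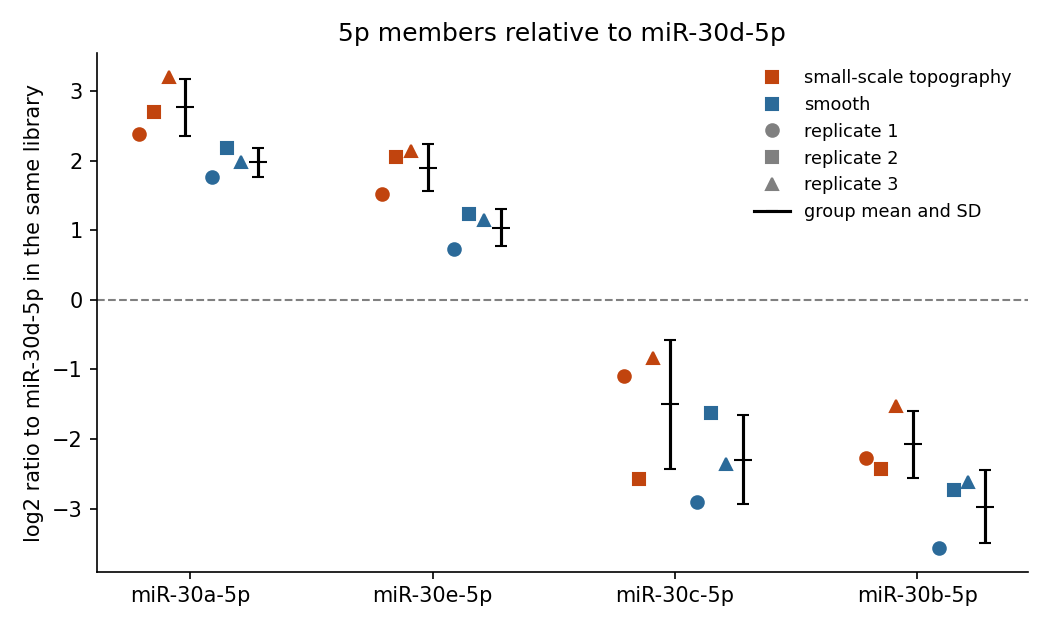
Log2 ratio of 4 members of the 5p arms to miR-30d-5p in the same library, with points for the libraries (colour for the disk, shape for the replicate number) and black bars for the group mean and SD. The 3 topography libraries lie above the 3 smooth libraries for miR-30a-5p, miR-30e-5p and miR-30b-5p, and overlap with them for miR-30c-5p.

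miR-30c is a known repressor of Runx2 in mouse osteoblasts. miR-30c-5p was listed at 46.3, 24.1 and 40.5 in the topography libraries and at 43.4, 50.4 and 28.9 in the smooth libraries. The groups overlapped over most of their range, and the log2 fold change was -0.16 (standard error 0.57, adjusted p = 0.943 from limma). Its 95% confidence interval, -1.32 to 1.01, does not leave out a change of 1 on the log2 scale in either direction. miR-30b-5p was listed at 20.6, 26.4 and 25.2 and at 27.2, 23.6 and 24.1. It was the steadiest of the 5 across libraries, by 1.32 times between the lowest and the highest, although its values rest on 16.0 to 50.7 reads. Its log2 fold change was -0.06 (standard error 0.69, adjusted p = 0.985 from limma).

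Members from the same chromosome did not keep a constant ratio. miR-30d-5p to miR-30b-5p, both from chromosome 15, varied from 2.88 to 11.9 times over the 6 libraries. It was 2.88 to 5.41 times on topography disks and 6.15 to 11.9 times on smooth disks, which in part restates the difference in miR-30d-5p. miR-30e-5p to miR-30c-5p varied from 6.11 to 24.6 times, the latter in topography replicate 2, and miR-30a-5p to miR-30c-5p from 11.2 to 38.6 times. As a description over 6 libraries, Pearson's r of the log2 values was 0.51 for miR-30d-5p with miR-30b-5p, and -0.45 for miR-30e-5p and -0.19 for miR-30a-5p with miR-30c-5p. miR-30c-5p cannot be assigned to 1 of its hairpins. Its values rest on 15.5 to 108 reads, with the 15.5 in topography replicate 2.

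The 3p arms were rare, and only 2 of the 5 were listed in more than 2 libraries. miR-30a-3p was listed at 24.4, 18.6 and 0 in the topography libraries and at 8.26, 18.6 and 10.8 in the smooth libraries, in 5 of 6 libraries. Its share of both arms of the hairpin was 4.50% (95% Clopper-Pearson interval 2.73 to 6.94), 1.96% (1.02 to 3.41) and 0% on the 3 topography disks, in the order of their replicate numbers, and 0.747% (0.359 to 1.37), 2.56% (1.83 to 3.47) and 1.81% (0.833 to 3.42) on the smooth disks. These intervals cover counting error only, and the 0% may hold fewer than about 5 reads. The share thus varied beyond counting error among libraries of the same disk, while the groups overlapped (exact permutation test, two-sided, p = 0.8, adjusted over 5 hairpins p = 1). The log2 fold change of -0.70 (standard error 1.24) has the opposite sign to the difference of the means, 14.4 ± 12.8 on topography disks and 12.6 ± 5.41 on smooth disks (SD, n = 3 each). Without topography replicate 3, where it is listed at 0, the log2 fold change was 0.79.

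miR-30b-3p was listed at 0, 17.1 and 6.31 and at 8.26, 6.52 and 0. It was high for a 3p arm where it was listed, at 20% to 39.3% of both arms in those 4 libraries, on 6 to 14 reads of miR-30b-3p. The listed sequences of miR-30b were not compared with a mouse hairpin. The disks overlapped (log2 fold change 0.31, standard error 1.60, adjusted p = 0.968 from limma). miR-30c-2-3p, which unlike its 5p partner belongs to 1 hairpin, was listed only in smooth replicates 1 and 2, at 6.61 and 3.26. miR-30e-3p and miR-30d-3p were listed only in smooth replicate 2, at 2.33 and 2.80, which are 5 and 6 reads and lie below the listing limit of every other library. For the last 3, no level on topography disks can be told apart from one below the limit. The exact permutation test on the arm shares of miR-30b and miR-30c gave adjusted p = 1 for each. The unadjusted p of miR-30c was 0.4 from the same test. The adjustment covered 5 hairpins, of which miR-30d and miR-30e, listed on the 3p arm in 1 library only, could not give a low p. As miR-30c-5p matched 2 hairpins, the share of miR-30c is not that of 1 hairpin.

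**Figure D4:**
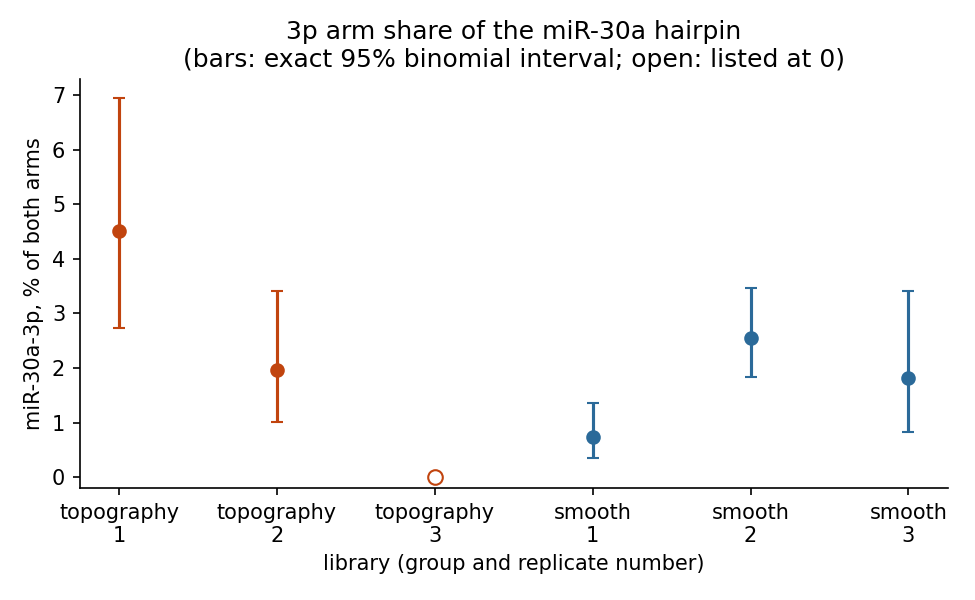
miR-30a-3p as a percentage of both arms of its hairpin in each library, with small-scale topography in orange and smooth in blue, bars for the exact 95% binomial interval and an open circle for the library where it is listed at 0. The values run from 0% to 4.50% on topography disks and from 0.747% to 2.56% on smooth disks, so the groups overlap.

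Besides miR-30c, 10 microRNAs known to repress Runx2 were looked up, of which 3 were listed and 2 could be tested. miR-23a-3p was listed at 1245, 1362 and 987 in the topography libraries and at 1473, 1854 and 1177 in the smooth libraries. The groups overlapped, and the log2 fold change was -0.31 (standard error 0.26, adjusted p = 0.823 from limma). miR-34c-5p, also a known target of p53, went the other way, at 118, 55.9 and 44.1 against 28.1, 18.6 and 14.5. Its groups did not overlap and its log2 fold change was 1.71 (standard error 0.59, unadjusted p = 0.0075, adjusted p = 0.823 from limma). Of all 536 sequences, 1.87% were higher without overlap and 0.56% were higher at an unadjusted p under 0.05. miR-133a-3p was listed in smooth replicate 2 only, at 2.33, and no value of the other 7 was analysed here.

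Of 247 other sequences listed in all 6 libraries, those whose log2 values were most like the summed miR-30 5p arms were named as a description, with no test, since they were picked as the closest. They were mir-6240-p3_1ss9TG (Pearson's r = 0.95, Spearman's rho = 0.94), miR-16-5p (r = 0.95, rho = 0.94) and miR-151-3p_R+1 (r = 0.93, rho = 0.94), over 6 libraries. Without smooth replicate 1 and topography replicate 2, which lie farthest from the median of the miR-30 sum, r was 0.87, 0.98 and 0.91.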

How the data were processed

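Small RNA libraries (TruSeq kit) were trimmed of their 3′ adapter by the authors and restricted to 18 to 26 nt. Reads that matched mRNA, Rfam families or RepBase repeats were discarded, and ACGT101-miR gave each remaining sequence its name and scaled value. This deposited signal is normalized, and the sources used here do not give its scaling factor, the program's version or the genome build. Of 2731 rows read (1 more line had been emptied beforehand), those with an identical sequence and identical values were counted once, which merged 27.

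log2(value + 1) was fitted with limma 3.58.1 (trend = TRUE, R 4.3.3) over all 536 distinct sequences with a summed value of 20 or more, with Benjamini-Hochberg adjustment at 0.05. The 6 libraries were compared as 3 against 3 with no covariate. The exact permutation test (two-sided) served for single values. The value of 1 read, 0.466 to 1.55 by library, was read from the steps of the values. Within 0.02 reads, 89.2% to 93.8% of listed values were whole, so no test for counts was run. The rule for the members used names alone, but the family and the lists were chosen with earlier results of these data known. Named with values are all members, the Runx2 list and the 3 sequences most like the 5p sum. Marker lists were described by their levels. Sequences came from the deposited table and from RefSeq, of which both arms of miR-30a, miR-30c-2 and miR-30e were used. The listed sequences of miR-30b and miR-30d were not compared with a hairpin. Of the 6 others, 5 matched a RefSeq hairpin exactly and miR-30e-3p did not. Alternatives were other pseudocounts, filters, scaling and moderation, each library left out, rows as deposited, names summed and the replicate number as a block. Other software was Matplotlib 3.10.9, SciPy 1.17.1, pandas 2.3.3 and NumPy 2.4.6 under Python 3.11.15.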

Additional observations from a re-analysis of the deposited data

How the results depend on the processing

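No member had an adjusted p under 0.05 from limma under any alternative run, with 0 called in each. Over the alternatives other than leaving out a library, the log2 fold change of miR-30d-5p ranged from -0.95 to -0.92 and its unadjusted p from 0.0136 to 0.124. It was 0.0647 without a filter and 0.124 without the mean-variance trend. With 1 library left out, the log2 fold change ranged from -1.20 to -0.59 for miR-30d-5p, from -0.39 to 0.088 for miR-30a-5p, from -0.42 to 0.12 for miR-30e-5p, from -0.38 to 0.12 for miR-30c-5p, from -0.13 to 0.048 for miR-30b-5p, from -1.54 to 0.79 for miR-30a-3p and from -0.71 to 1.48 for miR-30b-3p, and the number of members at an unadjusted p under 0.05 from 0 to 1. The family's share of the total differed by -0.131 to 0.0224 percentage points, and the 3p share by -0.724 to 1.53 for miR-30a and by -4.97 to 14.7 for miR-30b. Only miR-30d-5p of the 7 tested members kept its sign in all of these fits.

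No pairing of the libraries by replicate number was seen: deviations of libraries with the same number correlated at -0.03, 0.10 and 0.02. Those of libraries with different numbers correlated at -0.15 to 0.14. A weak shared batch can be missed in this way and was not tested. With the replicate number as a block, 0 members were called at an adjusted p under 0.05 and miR-30d-5p was at -0.95. Shares of isomiRs within an arm could not be computed, because the table gives 1 sequence for each arm. Depth limits the 3p arms most, which rest on 5 to 40 reads where listed.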
